A study of Mus musculus with 15 samples.

Results

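The 40 genes described here make cholesterol and fatty acids, switch that synthesis on or off, or move its products. They were chosen by symbol from a list of these pathways. All 40 were measured, out of 22008 genes with a symbol on the array. They fall into 7 genes of the mevalonate steps, 9 of the sterol steps, 5 regulators, 5 genes of fatty acid synthesis, 6 of desaturation and elongation, 5 acyl-CoA synthetases and lipin, and 3 of sterol transport. The mevalonate and sterol genes together are called the 16 cholesterol synthesis genes.

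Whole primary tumours of 5 types, 3 tumours of each and 15 in all, were profiled on Affymetrix Mouse Gene 1.0 ST arrays, with 1 array per tumour. Cells of each line were grown in the fourth inguinal mammary fat pad of female mice, labelled as 6 to 8 weeks old (the study's methods give an older range), and tumours were taken at 400 to 600 mm3. 67NR (non-metastatic), 4T1.2 (metastatic) and EMT6.5 (metastatic) grew in BALB/c mice, and EO771 (non-metastatic) and EO771.LMB (metastatic) grew in C57BL/6 mice. 4T1.2 and EMT6.5 are clones grown from a single cell. EO771.LMB came from 1 rare lung nodule of EO771 cells that carried the mCherry reporter. Those cells had first been recovered from mouse lung and implanted again. The study treats parental EO771 as non-metastatic in its comparisons but also calls it poorly metastatic. 67NR and 4T1.2 are called the 4T1 pair below, and EO771 and EO771.LMB the EO771 pair. Mouse strain and tumour line cannot be told apart in any comparison of the EO771 pair with the BALB/c tumours. A whole tumour holds stroma and immune cells beside tumour cells, so fewer cells of a type and less RNA per cell cannot be told apart.

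Cells build cholesterol from acetyl-CoA through mevalonate, isoprenoid units and squalene, and they build fatty acids from the same acetyl-CoA through malonyl-CoA. Both routes are under the SREBP transcription factors, which sit in the endoplasmic reticulum membrane with their escort Scap, are held there by the Insig proteins when sterols are plentiful, and are cut free to enter the nucleus when sterols run low. SREBP-2, from Srebf2, acts mainly on cholesterol genes and SREBP-1, from Srebf1, mainly on fatty acid genes, often together with NF-Y at neighbouring promoter sites.

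Promoter stretches of 5 of the cholesterol synthesis genes are printed here to show the sequence at genes whose values are described below. They were picked with those values known. Each is the 200 bases before the transcription start, 5′ to 3′ on the gene's own strand, from RefSeq's GRCm38.p6 table. Capitals mark CCAAT, the NF-Y box, on either strand (ATTGG on the other), and TCACNCCAC, a sterol regulatory element core, on either strand.
Hmgcs1, chr13:119690151-119690350, + strand: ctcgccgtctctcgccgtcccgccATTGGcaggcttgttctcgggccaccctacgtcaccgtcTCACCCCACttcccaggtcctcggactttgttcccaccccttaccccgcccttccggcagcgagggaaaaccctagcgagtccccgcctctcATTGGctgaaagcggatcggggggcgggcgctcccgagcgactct
Idi1, chr13:8885406-8885605, + strand: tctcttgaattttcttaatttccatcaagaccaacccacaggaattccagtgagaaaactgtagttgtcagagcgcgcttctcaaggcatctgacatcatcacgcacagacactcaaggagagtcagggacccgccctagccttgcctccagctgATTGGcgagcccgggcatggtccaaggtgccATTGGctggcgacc
Cyp51, chr5:4104698-4104897, - strand: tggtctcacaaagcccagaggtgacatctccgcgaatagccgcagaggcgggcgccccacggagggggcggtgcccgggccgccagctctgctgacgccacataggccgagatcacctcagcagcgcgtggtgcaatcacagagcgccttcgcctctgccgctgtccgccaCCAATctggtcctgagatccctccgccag
Nsdhl, chrX:72918321-72918520, + strand: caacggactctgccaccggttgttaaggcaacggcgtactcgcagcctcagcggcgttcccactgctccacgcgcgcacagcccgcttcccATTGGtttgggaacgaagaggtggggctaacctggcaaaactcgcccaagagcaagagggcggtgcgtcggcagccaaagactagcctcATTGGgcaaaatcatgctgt
Hsd17b7, chr1:169969206-169969405, - strand: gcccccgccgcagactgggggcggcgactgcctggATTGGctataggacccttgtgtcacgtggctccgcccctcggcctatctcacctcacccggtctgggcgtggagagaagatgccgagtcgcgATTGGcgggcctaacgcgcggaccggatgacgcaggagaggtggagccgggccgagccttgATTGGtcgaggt

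In these stretches, Hsd17b7 held 3 CCAAT boxes, Hmgcs1, Idi1 and Nsdhl held 2 each and Cyp51 held 1, and the box nearest the start began between 12 and 45 bases before it. The pattern TCACNCCAC was found only in Hmgcs1 among these 5, beginning 137 bases before the start, and it overlapped no CCAAT box. No other form of the element was searched, so its absence does not show that a stretch lacks a sterol regulatory element. A promoter window of 300 bases, from 250 before the start to 50 after it, was at hand for 32 of the 40 genes. CCAAT lay on either strand in a window of 12 of the 13 cholesterol synthesis genes with one (92.3%), of 5 of the 8 genes of fatty acid synthesis, desaturation and elongation (62.5%), and of 41.1% of all 27025 genes with one. TCACNCCAC lay in 2 of the 32, Hmgcs1 and Acsl1, against 1.44% of all genes, and CACGTG, the palindromic E-box that SREBP-1 and Myc can bind, lay in 6 of the 32 (18.8%) against 8.09%. These are matches of letters and not sites shown to be bound.

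**Figure D1:**
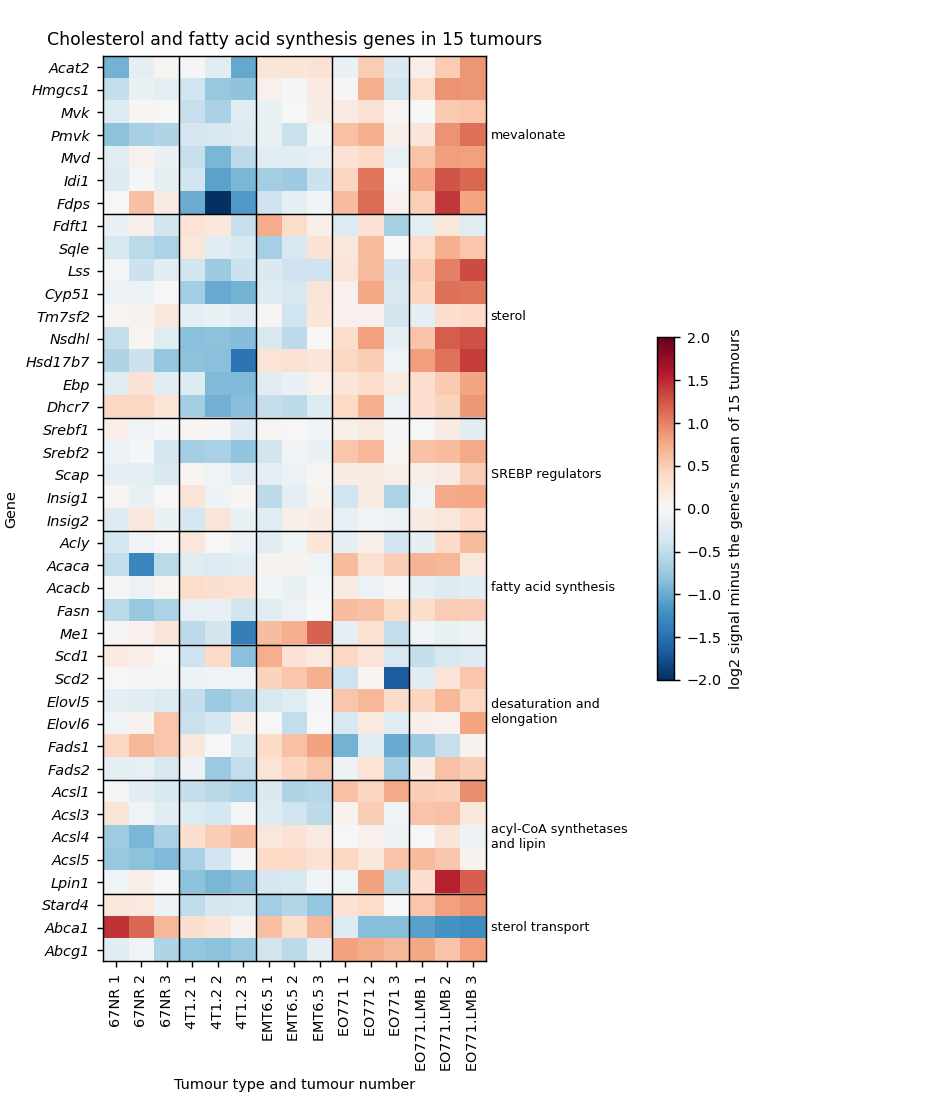
The heat map shows the log2 signal of each of the 40 genes (rows, by role) in each of the 15 tumours (columns, by type and tumour number) as the difference from the gene's mean of all 15, with colours saturating at 2 in either direction. Most cholesterol synthesis rows are blue in the 4T1.2 tumours and red in the EO771.LMB tumours, and within EO771 the second tumour is redder than the third in all 16.

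Across the 5 tumour types, 31 of the 40 genes differed by limma's moderated F-test at an adjusted p under 0.05, where 48.9% of all genes did. Signals are on the log2 scale, p-values carry the Benjamini-Hochberg adjustment across 35556 transcript clusters (the array's units of measurement), and differences are given with the standard error (SE) of the fit. Of the 9 that did not pass, 3 were cholesterol synthesis genes (Acat2, Fdft1 and Tm7sf2) and 3 were regulators (Srebf1, Insig1 and Insig2). The others were Acly, Scd1 and Elovl6. The type with the highest mean was EO771.LMB for 15 of the 16 cholesterol synthesis genes, the exception being Fdft1, and for 21% of all genes. The type with the lowest mean was 4T1.2 for 13 of the 16, the exceptions being Pmvk, Sqle and Fdft1, and for 18.6% of all genes.

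In the 4T1 pair the cholesterol synthesis genes that passed the test, 5 of 16, were all lower in the metastatic 4T1.2, as were all 3 genes of sterol transport. Of the 40 genes, 11 were lower in 4T1.2 than in 67NR, where 11% of all genes were, and 3 were higher, where 9.78% of all genes were. The 11 were Fdps, Dhcr7, Abca1, Me1, Cyp51, Ebp, Mvd, Srebf2, Stard4, Abcg1 and Elovl5, and the 3 were Acsl4, Fasn and Acacb. The median difference was -0.37 over the 40 genes, -0.42 over the 16 cholesterol synthesis genes and 0.04 over all genes. The count of lower genes depended on single tumours, falling to 3 without 67NR tumour 2, to 6 without 67NR tumour 1 or 4T1.2 tumour 3 and to 7 without 4T1.2 tumour 2, and the higher genes fell to 1 without 67NR tumour 2. The 5 cholesterol synthesis genes fell to 2 without 67NR tumour 2 or 4T1.2 tumour 2 and to 3 without 4T1.2 tumour 3. Fdps, Dhcr7, Abca1 and Acsl4 passed whichever tumour was left out.

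In the EO771 pair none of the 40 genes passed, and 6 of 22008 genes did (0% higher, 0.0273% lower in EO771.LMB). At an unadjusted p under 0.05, 13 of the 40 were higher in EO771.LMB (4.29% of all genes) and 2 were lower (4.52%). The measured difference was above 0 in 33 of the 40, in all 16 cholesterol synthesis genes and in 12044 of all 22008 genes. Its median was 0.28 over the 40, 0.38 over the 16 and 0.02 over all genes. Without EO771 tumour 3 the median over the 40 was 0.13 and the count above 0 among the 16 was 15.

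The difference of the EO771 pair less that of the 4T1 pair was tested in the same fit, and it passed with a positive sign in 11 of the 40 genes (6.41% of all genes) and with a negative sign in 3 (5.88%). The 11 were Fdps, Lpin1, Cyp51, Dhcr7, Nsdhl, Hsd17b7, Idi1, Mvd, Stard4, Ebp and Srebf2, of which 8 belong to the 16 cholesterol synthesis genes, and the 3 were Acsl4, Acacb and Fasn. The count of 11 fell to 7 without 67NR tumour 2 or EO771.LMB tumour 3. The count of 8 cholesterol synthesis genes fell to 5 without 67NR tumour 2, EO771 tumour 3, EO771.LMB tumour 2 or EO771.LMB tumour 3. Fdps, Lpin1, Cyp51, Dhcr7, Hsd17b7, Mvd, Stard4, Acsl4 and Acacb passed whichever tumour was left out, while Fasn lost its call in 12 of the 15 such fits, Idi1 in 9, Ebp in 8 and Nsdhl and Srebf2 in 4 each.

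**Figure D2:**
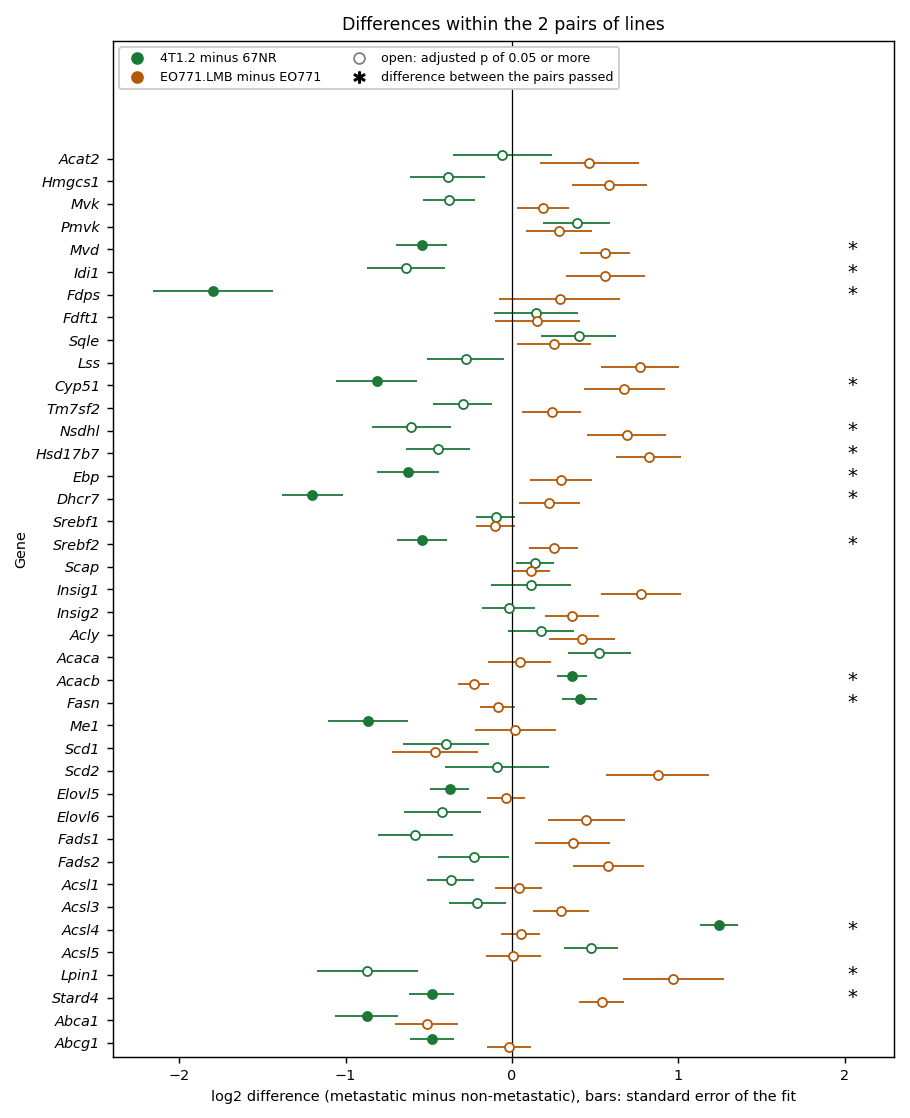
Each gene's log2 difference between the metastatic and the non-metastatic line is shown for the 4T1 pair (green) and the EO771 pair (brown), with bars for the standard error of the fit, filled points for an adjusted p under 0.05 and stars for the 14 genes whose difference differed between the pairs. Green points of cholesterol synthesis genes lie mostly left of 0 and brown points right of it, and no brown point is filled.

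Against the mean of the 3 BALB/c types, the EO771 pair was higher in 24 of the 40 genes (23.4% of all genes) and lower in 3 (19.5%). Of the 16 cholesterol synthesis genes 13 were higher, with a median difference of 0.75, against -0.02 over all genes. Acat2, Fdft1 and Tm7sf2 did not pass. Averaged over the 16 as the difference from the mean of all types, EO771 tumour 3 had -0.15. That value lay within the ranges of 67NR (-0.27 to -0.05) and EMT6.5 (-0.21 to 0.03). Every other tumour of the EO771 pair, from 0.23 upwards, lay above all BALB/c tumours. Dhcr7 was among the 13, although its EO771 tumours (7.58 to 8.40) spanned those of 67NR (7.97 to 8.11). The 3 lower genes were Abca1, Fads1 and Acacb. For Acacb the EO771 tumours (6.00 to 6.28) overlapped those of 67NR (6.00 to 6.17) and EMT6.5 (5.99 to 6.08). The 4T1.2 tumours (6.41 to 6.48) were the highest in Acacb and those of EO771.LMB (5.85 to 5.94) the lowest. The count of higher genes was 24 or 25 whichever tumour was left out. Centring each array on its median moved the split of all clusters that passed from 6730 higher and 6876 lower to 8059 and 5318, and Acacb then did not pass (adjusted p = 0.15). EMT6.5 was set against the mean of the 4T1 pair, the other BALB/c tumours, and was higher in 7 of the 40 genes (11.9% of all genes) and lower in 1 (9.56%), the sterol carrier Stard4. The 7 were Me1, Hsd17b7, Acsl5, Fads2, Acaca, Acsl4 and Fasn, so that 1 of the 16 cholesterol synthesis genes was among them. For Acsl4 the EMT6.5 tumours (11.07 to 11.17) lay above 67NR but below every 4T1.2 tumour (11.22 to 11.51). For Fasn they (8.31 to 8.52) overlapped 4T1.2 (8.16 to 8.36). For the others all EMT6.5 tumours lay above the 4T1 pair. The 7 fell to 4 without EMT6.5 tumour 2 and to 3 without EMT6.5 tumour 3. These comparisons share tumours with those within the pairs.

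The mevalonate genes showed the widest range of type means in Fdps, which makes farnesyl diphosphate, the branch point to sterols and prenylated proteins. Its log2 signal was 8.89, 9.48 and 9.05 in the 67NR tumours and 7.89, 6.37 and 7.75 in the 4T1.2 tumours. The types did not overlap, and 4T1.2 tumour 2 lay well below the other two. The difference was -1.80 ± 0.36 (SE; 3.48-fold lower in 4T1.2, adjusted p = 0.0028). EMT6.5 tumours had 8.47, 8.69 and 8.82, EO771 tumours 9.50, 10.003 and 8.97, and EO771.LMB tumours 9.37, 10.29 and 9.68. The types of the EO771 pair overlapped, with a difference of 0.29 ± 0.36 (adjusted p = 0.91), and the pairs differed by 2.08 ± 0.51 (adjusted p = 0.017).

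Idi1 isomerises isopentenyl diphosphate, and its signal was 9.21, 9.45 and 9.29 in 67NR, 9.09, 8.39 and 8.56 in 4T1.2, then 8.78, 8.74 and 9.03 in EMT6.5. In EO771 it was 9.89, 10.53 and 9.47 and in EO771.LMB 10.24, 10.72 and 10.62, so that all 6 tumours of the EO771 pair lay above all 9 BALB/c tumours. That difference was 1.30 ± 0.15 (2.46-fold, adjusted p = 7.6e-06). Within the 4T1 pair the difference of -0.64 ± 0.24 did not pass (adjusted p = 0.082), while the dimmer of its 2 clusters gave -0.90 ± 0.27 (adjusted p = 0.032).

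Mvd, which decarboxylates mevalonate diphosphate, had 6.27, 6.58 and 6.36 in 67NR and 6.03, 5.58 and 5.97 in 4T1.2, with no overlap and a difference of -0.54 ± 0.15 (adjusted p = 0.023). It had 6.79, 6.89 and 6.35 in EO771, with 7.07, 7.32 and 7.31 in EO771.LMB, which did not overlap either, with a difference of 0.56 ± 0.15 (adjusted p = 0.3). The pairs differed by 1.10 ± 0.22 (adjusted p = 0.004), and the tumours of both pairs separated, in opposite directions.

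Hmgcs1, which makes HMG-CoA, and Mvk and Pmvk, which phosphorylate mevalonate in turn, were higher in the EO771 pair than in the BALB/c types by 0.71 ± 0.15, 0.43 ± 0.10 and 1.01 ± 0.13 (adjusted p = 0.0013, 0.003 and 1.7e-05). In the 4T1 pair Pmvk was 5.71, 5.86 and 5.93 in 67NR and 6.19, 6.21 and 6.27 in 4T1.2, a difference of 0.39 ± 0.20 that did not pass (adjusted p = 0.22). Acat2, the cytosolic thiolase that joins acetyl units at the head of the route, passed in none of the comparisons, and its 3 tumours spread from 6.85 to 7.84 in 67NR and from 6.77 to 7.76 in 4T1.2.

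Among the sterol genes, Dhcr7, whose enzyme reduces 7-dehydrocholesterol to cholesterol, gave the smallest adjusted p of the 16 cholesterol synthesis genes in the 4T1 pair. Its signal was 8.11, 8.11 and 7.97 in 67NR and 7.02, 6.73 and 6.84 in 4T1.2. The gap between the types was wide beside the spread within them, and the difference was -1.20 ± 0.18 (2.3-fold lower in 4T1.2, adjusted p = 0.00031). EMT6.5, at 7.21, 7.18 and 7.41, lay between them. EO771 at 8.08, 8.40 and 7.58 and EO771.LMB at 8.03, 8.14 and 8.57 overlapped each other and the 67NR tumours. Between the pairs the difference was 1.43 ± 0.26 (adjusted p = 0.0023).

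Cyp51, the lanosterol demethylase, had 8.90, 8.91 and 8.997 in 67NR and 8.32, 7.99 and 8.06 in 4T1.2, a difference of -0.81 ± 0.24 (adjusted p = 0.032) that was lost in 5 of the 15 fits with a tumour left out. It had 9.10, 9.79 and 8.72 in EO771, with 9.45, 10.12 and 10.07 in EO771.LMB, which overlapped (0.68 ± 0.24, adjusted p = 0.46). The difference between the pairs was 1.49 ± 0.34 (adjusted p = 0.012). Ebp, the sterol isomerase that acts further along, was 7.64, 8.13 and 7.62 in 67NR, followed by 7.59, 6.96 and 6.95 in 4T1.2, 7.63, 7.70 and 7.94 in EMT6.5, then 8.09, 8.20 and 8.02 in EO771, with 8.18, 8.37 and 8.64 in EO771.LMB, and 67NR and 4T1.2 did not overlap. It was lower in 4T1.2 than in 67NR, with a difference of -0.63 ± 0.19 (adjusted p = 0.03), a call that was lost in 3 of the 15 such fits.

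Nsdhl and Hsd17b7 act in the removal of the methyl groups at carbon 4 of the sterol ring. Nsdhl was 9.39, 9.90 and 9.62 in the 67NR tumours and 9.04, 9.05 and 9.003 in the 4T1.2 tumours, against 10.22, 10.68 and 9.69 in EO771, with 10.44, 11.08 and 11.15 in EO771.LMB. The 4T1.2 tumours were the lowest and nearly equal, and 2 of the EO771.LMB tumours the highest. The pairs differed by 1.30 ± 0.34 (adjusted p = 0.024), while neither pair passed on its own (-0.61 ± 0.24, adjusted p = 0.1, and 0.69 ± 0.24, adjusted p = 0.44).

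Hsd17b7 had the widest range of type means of the sterol genes. It was 7.98, 8.15 and 7.81 in 67NR, 7.76, 7.74 and 7.10 in 4T1.2, then 8.86, 8.89 and 8.83 in EMT6.5. The EMT6.5 tumours lay above all 6 tumours of the 4T1 pair, by 1.10 ± 0.17 (2.15-fold, adjusted p = 0.00031). It was 8.99, 9.07 and 8.51 in EO771, with 9.41, 9.66 and 9.96 in EO771.LMB. These did not overlap and differed by 0.82 ± 0.19, which did not pass (adjusted p = 0.19). Its 95% interval, 0.39 to 1.25, used the residual degrees of freedom alone and carries no adjustment across clusters. Between the pairs the difference was 1.27 ± 0.27 (adjusted p = 0.0078).

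Sqle, the squalene epoxidase, and Lss, the lanosterol synthase, were higher in the EO771 pair than in the BALB/c types by 0.69 ± 0.14 and 0.92 ± 0.15 (adjusted p = 0.0014 and 0.00018). In the 4T1 pair Sqle was 9.60, 9.37 and 9.27 in 67NR and 10.13, 9.70 and 9.61 in 4T1.2, without overlap, a difference of 0.40 ± 0.22 that did not pass (adjusted p = 0.26). Fdft1, the squalene synthase, and Tm7sf2, a sterol reductase, passed in no comparison. A further cluster of Fdft1, dimmer than the one used, was lower in the EO771 pair, with a difference of -0.35 ± 0.06 (adjusted p = 0.00049), where the brightest gave -0.23 ± 0.16 (adjusted p = 0.3). The remaining cluster of Fdft1 had the opposite sign, 0.12 ± 0.14 (adjusted p = 0.56).

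**Figure D3:**
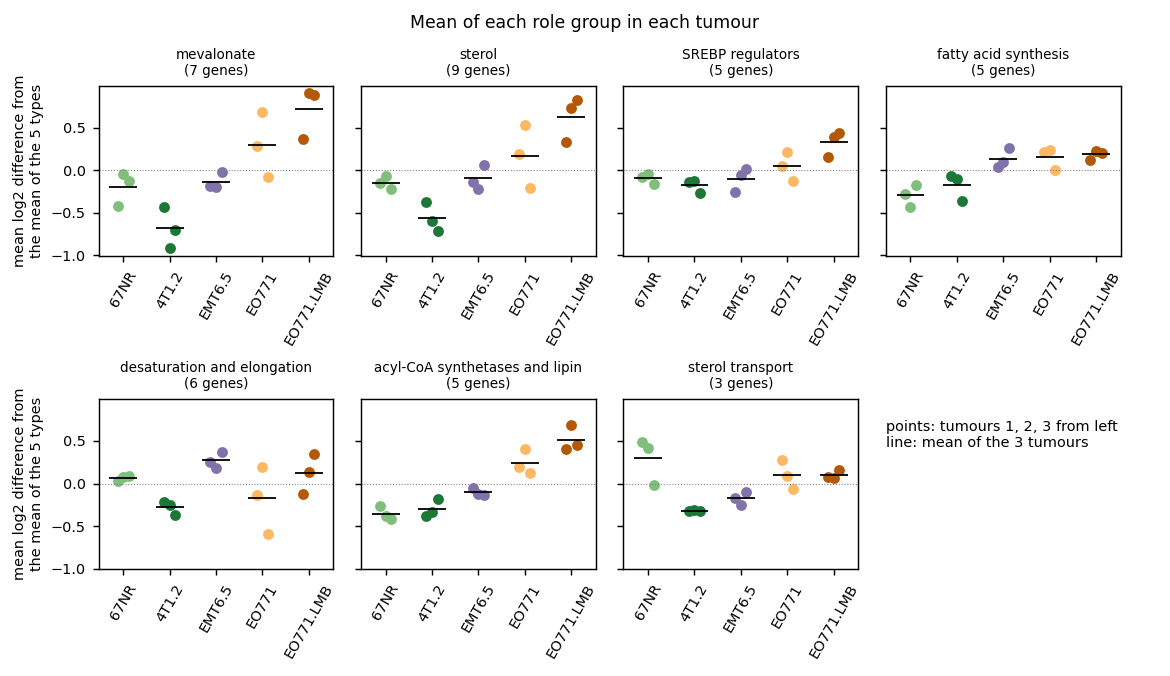
For each role group, points give the mean over its genes of the log2 difference from the mean of the 5 types, in tumours 1, 2 and 3 of each type from left to right, and lines give the mean of the 3 tumours. The mevalonate and sterol groups are lowest in 4T1.2 and highest in EO771.LMB, and the desaturation and elongation group is highest in EMT6.5.

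Of the regulators, Srebf2 passed in the 4T1 pair, between the pairs and against the BALB/c types, and Srebf1 passed in none of the comparisons. Srebf2 was 8.15, 8.24 and 7.92 in 67NR and 7.58, 7.63 and 7.48 in 4T1.2, without overlap, a difference of -0.54 ± 0.15 (adjusted p = 0.022). It was 7.90, 8.20 and 8.14 in EMT6.5, 8.82, 8.93 and 8.30 in EO771, with 8.86, 8.91 and 9.03 in EO771.LMB. All 6 tumours of the EO771 pair lay above all BALB/c tumours, by 0.89 ± 0.10 (1.86-fold, adjusted p = 3.4e-06). The type means of Srebf1 ran from 6.72 ± 0.15 (SD, n = 3) in 4T1.2 to 6.89 ± 0.11 (SD, n = 3) in EO771.

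Scap, the sterol-sensing escort, was higher in the EO771 pair than in the BALB/c types by 0.33 ± 0.07 (adjusted p = 0.0022), although its dimmer cluster gave 0.11 ± 0.09 (adjusted p = 0.36). Insig1 retains the SREBP complex and is itself a target of SREBP. It was 10.37, 10.94 and 10.15 in EO771, with 10.69, 11.54 and 11.56 in EO771.LMB, with 1 EO771 tumour above the lowest EO771.LMB tumour and a difference of 0.78 ± 0.24 (adjusted p = 0.37). Insig2, a second retention protein, differed by 0.36 ± 0.16 in that pair (adjusted p = 0.58).

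Of the 5 genes of fatty acid synthesis, 2 were higher (9.78% of all genes) and 1 was lower (11%) in 4T1.2 than in 67NR. Without 67NR tumour 2, 1 of the 3 members higher in 4T1.2 was left. Fasn, the fatty acid synthase, was 7.98, 7.77 and 7.90 in 67NR and 8.36, 8.35 and 8.16 in 4T1.2, higher in 4T1.2 by 0.41 ± 0.10 (1.33-fold, adjusted p = 0.013). It was 8.31, 8.41 and 8.52 in EMT6.5, 9.15, 9.12 and 8.93 in EO771, with 8.88, 9.03 and 9.02 in EO771.LMB. The 6 tumours of the EO771 pair lay above all others, by 0.82 ± 0.07 (1.77-fold, adjusted p = 1.5e-07), and within that pair the difference was -0.09 ± 0.10 (adjusted p = 0.9).

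Acaca, the cytosolic acetyl-CoA carboxylase, was 9.27, 8.44 and 9.20 in 67NR, followed by 9.50, 9.47 and 9.51 in 4T1.2, 9.82, 9.82 and 9.66 in EMT6.5, then 10.38, 10.04 and 10.24 in EO771, with 10.42, 10.42 and 9.97 in EO771.LMB. It was above the BALB/c tumours in all 6 tumours of the EO771 pair, by 0.84 ± 0.12 (adjusted p = 6e-05), and 67NR tumour 2 was the lowest of the 15. EMT6.5 exceeded the 4T1 pair by 0.53 ± 0.16 (adjusted p = 0.035), and the dimmer cluster gave 0.31 (adjusted p = 0.22). The call of the brighter cluster was lost in 6 of the 15 fits with a tumour left out. Acacb, the mitochondrial form, was 6.08, 6.00 and 6.17 in 67NR and 6.48, 6.44 and 6.41 in 4T1.2, higher in 4T1.2 by 0.36 ± 0.09 (adjusted p = 0.013). It was 6.07, 5.99 and 6.08 in EMT6.5, 6.28, 6.00 and 6.10 in EO771, with 5.94, 5.85 and 5.89 in EO771.LMB, with EO771 above EO771.LMB in every tumour and a difference of -0.23 ± 0.09 (adjusted p = 0.53). Acly, which splits citrate to supply acetyl-CoA, passed in no comparison.

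Me1, the malic enzyme that supplies NADPH, had the widest range of type means in this group. It was 8.95, 9.01 and 9.17 in 67NR, 8.41, 8.57 and 7.56 in 4T1.2, then 9.55, 9.66 and 10.11 in EMT6.5. The EMT6.5 tumours were the highest of all 15, above the 4T1 pair by 1.16 ± 0.21 (2.23-fold, adjusted p = 0.0013), and 4T1.2 was below 67NR, with a difference of -0.87 ± 0.24 (adjusted p = 0.022). Against the BALB/c types the cluster used did not pass in the EO771 pair (-0.18 ± 0.16, adjusted p = 0.42), but the other cluster of Me1 was higher there by 0.41 ± 0.13 (adjusted p = 0.019). Idi1, Fdft1, Scap, Acaca and Me1 each have more than 1 cluster under their symbol, and whether a cluster reads the gene or a near-identical copy was not tested.

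Of the 6 genes of desaturation and elongation, 1 was higher (Elovl5; 23.4% of all genes) and 1 lower (Fads1; 19.5%) in the EO771 pair against BALB/c types, shares no larger than those of all genes. Fads1 and Fads2 desaturate polyunsaturated fatty acids, and the EO771 pair was lower in Fads1, with a difference of -0.92 ± 0.15 (1.89-fold, adjusted p = 0.00014) while Fads2 differed by 0.20 ± 0.14 (adjusted p = 0.28). Fads1 was 9.29, 9.54 and 9.43 in 67NR, 9.10, 8.87 and 8.55 in 4T1.2, then 9.26, 9.46 and 9.68 in EMT6.5. It was 7.93, 8.63 and 7.87 in EO771, with 8.15, 8.42 and 8.95 in EO771.LMB, so that only the highest tumours of the EO771 pair reached the level of 4T1.2.

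Fads2 rose in EMT6.5 against the 4T1 pair by 0.75 ± 0.18 (1.68-fold, adjusted p = 0.011). It was 8.54, 8.56 and 8.41 in 67NR, followed by 8.61, 7.97 and 8.23 in 4T1.2, 8.99, 9.14 and 9.27 in EMT6.5, then 8.62, 8.99 and 8.04 in EO771, with 8.87, 9.31 and 9.21 in EO771.LMB, so that the EMT6.5 tumours lay above those of the 4T1 pair. Elovl5, an elongase of polyunsaturated fatty acids, was higher in all 6 tumours of the EO771 pair (10.55 to 10.84) than in any BALB/c tumour (9.43 to 10.14), by 0.86 ± 0.07 (1.82-fold, adjusted p = 2.8e-07). It was lower in 4T1.2 than in 67NR, with a difference of -0.38 ± 0.11 (adjusted p = 0.036). This call was lost in 5 of the 15 fits with a tumour left out. Scd1 and Scd2 make monounsaturated fatty acids, and Elovl6 lengthens saturated and monounsaturated ones, and none of these passed in any comparison. Scd2 was 8.79, 9.23 and 7.54 in EO771, where the last is the lowest of the 15 tumours, and 8.97, 9.46 and 9.76 in EO771.LMB (0.88 ± 0.31, adjusted p = 0.45). Scd1 gave -0.46 ± 0.26 in the same pair (adjusted p = 0.7).

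Acyl-CoA synthetases activate free fatty acids. Of the 5 genes of this group with lipin, 4 were higher and 0 lower in the EO771 pair against the BALB/c types (23.4% and 19.5% of all genes), and 1 was higher in 4T1.2 than in 67NR (9.78%). Acsl4, which prefers arachidonic acid, was 10.18, 9.97 and 10.24 in 67NR and 11.22, 11.39 and 11.51 in 4T1.2. No tumours overlapped, and the difference of 1.24 ± 0.12 (2.37-fold higher in 4T1.2) had the smallest adjusted p of the 40 genes in that pair, 3e-06. EMT6.5 (11.11, 11.17 and 11.07), EO771 (10.89, 10.97 and 10.79) and EO771.LMB (10.88, 11.14 and 10.79) lay between them, and EO771.LMB differed from EO771 by 0.05 ± 0.12 (adjusted p = 0.96). The difference between the pairs was -1.19 ± 0.17 (adjusted p = 0.00026).

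Acsl1 was 8.28, 8.10 and 8.01 in 67NR, followed by 7.84, 7.76 and 7.68 in 4T1.2, 8.03, 7.72 and 7.75 in EMT6.5, then 8.90, 8.74 and 9.08 in EO771, with 8.80, 8.80 and 9.24 in EO771.LMB. It was higher in all 6 tumours of the EO771 pair (8.74 to 9.24) than in any BALB/c tumour (7.68 to 8.28), by 1.02 ± 0.09 (2.03-fold, adjusted p = 4e-07). Acsl5 was 9.60, 9.53 and 9.47 in 67NR, 9.71, 9.98 and 10.33 in 4T1.2, then 10.76, 10.74 and 10.65 in EMT6.5, which exceeded the 4T1 pair by 0.95 ± 0.14 (1.93-fold, adjusted p = 0.00027). It was 10.77, 10.59 and 10.92 in EO771, with 10.99, 10.89 and 10.42 in EO771.LMB, and the EO771 pair exceeded the BALB/c types by 0.68 ± 0.11 (adjusted p = 0.00011). The EMT6.5 tumours lay within the range of the EO771 pair, and the lower BALB/c mean came from 67NR and 4T1.2. Acsl3 was higher in the EO771 pair by 0.52 ± 0.11 (adjusted p = 0.0014).

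Lpin1, a phosphatidate phosphatase on the way to triglycerides and a known SREBP target, had the widest range of type means in its group. It was 6.46, 6.66 and 6.53 in 67NR, 5.72, 5.63 and 5.69 in 4T1.2, then 6.21, 6.24 and 6.49 in EMT6.5. It was 6.46, 7.35 and 5.98 in EO771, with 6.88, 8.10 and 7.74 in EO771.LMB. The BALB/c types were tight and the EO771 pair widely spread, with the second EO771 tumour above the first of EO771.LMB. Between the pairs the difference was 1.84 ± 0.43 (3.58-fold, adjusted p = 0.013), while the differences within them, -0.87 ± 0.30 and 0.97 ± 0.30, did not pass (adjusted p = 0.065 and 0.38).

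The sterol transporters Abca1 and Abcg1, both of which export cholesterol and are induced when sterols are plentiful, ran in opposite directions between the EO771 pair and the BALB/c types. Abca1 was 9.22, 8.93 and 8.44 in 67NR, 8.10, 8.02 and 7.85 in 4T1.2, then 8.37, 8.12 and 8.44 in EMT6.5. It was 7.51, 6.92 and 6.93 in EO771, with 6.70, 6.59 and 6.54 in EO771.LMB. All 6 tumours of the EO771 pair lay below all BALB/c tumours, with a difference of -1.53 ± 0.12 (2.88-fold, adjusted p = 1.4e-07), and 4T1.2 lay below 67NR, with a difference of -0.87 ± 0.19 (adjusted p = 0.0048).

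Abcg1 was 7.32, 7.45 and 6.92 in 67NR, 6.76, 6.70 and 6.78 in 4T1.2, then 7.13, 7.001 and 7.33 in EMT6.5. It was 8.33, 8.27 and 8.19 in EO771, with 8.30, 8.09 and 8.35 in EO771.LMB, above all BALB/c tumours by 1.21 ± 0.09 (2.32-fold, adjusted p = 3.2e-08). Macrophages also express both transporters. The macrophage markers, 15 genes, had a mean score of 1.00 in 67NR, 0.47 in 4T1.2, -0.06 in EMT6.5, -0.60 in EO771 and -0.81 in EO771.LMB, where a score is the mean log2 difference of a list from the mean of the 5 types. Of these 15 markers 12 had lower signals in the EO771 pair than in BALB/c types (19.5% of all genes) and 7 were lower in 4T1.2 than in 67NR (11%), and their part in the levels of the transporters was not tested.

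Stard4, a cytosolic carrier of sterols and an SREBP target, separated the tumours of both pairs. It was 8.23, 8.19 and 7.88 in 67NR and 7.49, 7.66 and 7.70 in 4T1.2 (-0.48 ± 0.13, adjusted p = 0.021), and 8.30, 8.37 and 7.99 in EO771, with 8.55, 8.82 and 8.90 in EO771.LMB (0.54 ± 0.13, adjusted p = 0.23). EMT6.5 was the lowest type at 7.31, 7.42 and 7.24, below the 4T1 pair, with a difference of -0.54 ± 0.12 (adjusted p = 0.0045). The pairs differed by 1.02 ± 0.19 (adjusted p = 0.0026).

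**Figure D4:**
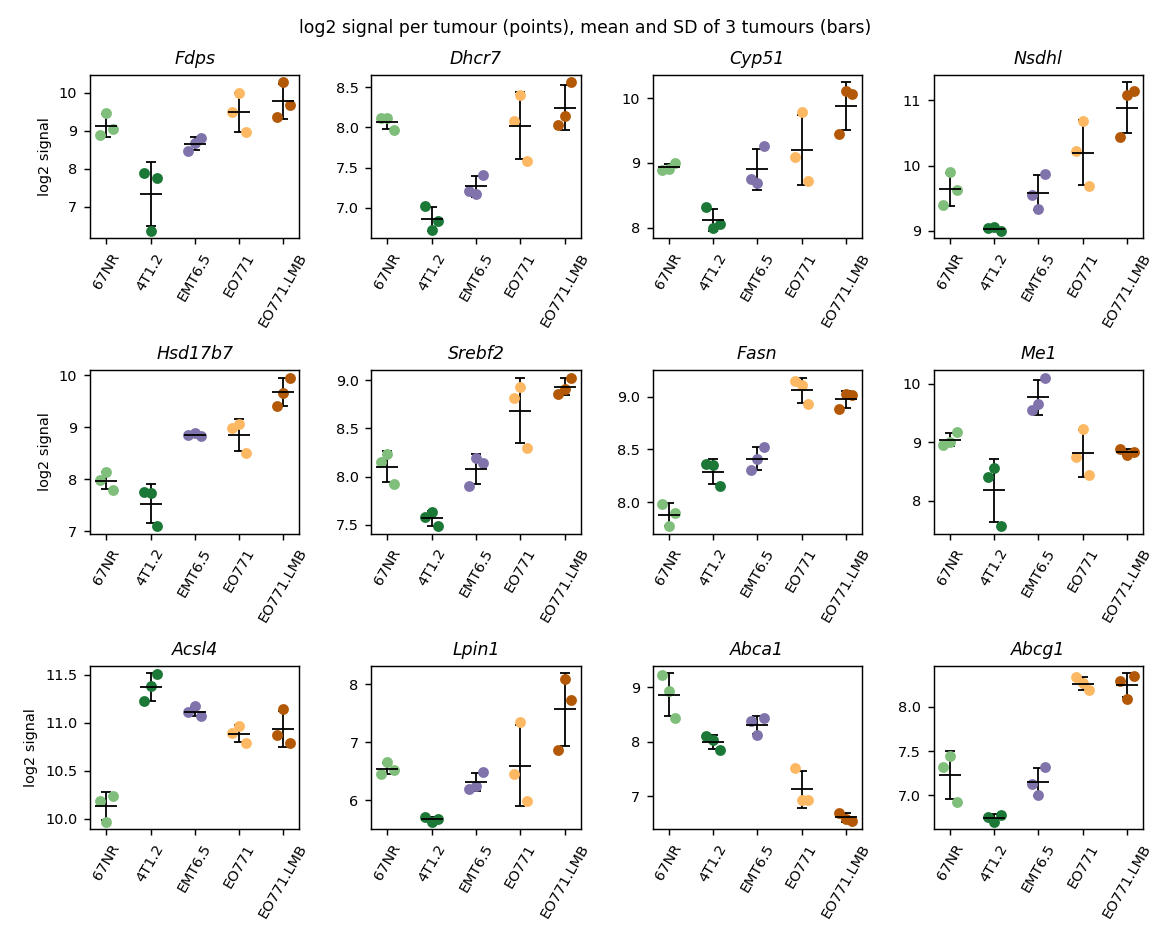
The log2 signal (vertical axes, each on its own scale) of 12 of the genes is plotted for tumours 1, 2 and 3 of each type as points, with the mean and SD of the 3 tumours as bars. Fdps, Dhcr7, Cyp51, Nsdhl, Srebf2 and Lpin1 are lowest in 4T1.2, Acsl4 is lowest in 67NR, and Abca1 and Abcg1 run in opposite directions between the EO771 pair and the BALB/c types.

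Tumours of 1 type were not equal in these genes, and the mean score of the cholesterol synthesis genes spread most in the EO771 pair. EO771 tumour 2 had the highest signal of its type in all 16 cholesterol synthesis genes and EO771 tumour 3 the lowest in all 16, where tumour 2 was the highest in 34.9% and tumour 3 the lowest in 32.1% of all genes. EO771.LMB tumour 1 was the lowest of its type in 15 of the 16, against 32% of all genes, and EMT6.5 tumour 3 the highest in 13 of the 16, against 36.8%. The mean score of the 16 genes ranged from -0.15 to 0.60 over the EO771 tumours and from 0.35 to 0.85 over the EO771.LMB tumours, which overlap. It ranged from -0.27 to -0.05 in 67NR, from -0.74 to -0.40 in 4T1.2 and from -0.21 to 0.03 in EMT6.5. Genes that share 1 array are not independent of each other, so these counts describe the tumours and carry no test. Cell markers differed between the same tumours. EO771 tumour 2 was the lowest of its type in 12 of 15 macrophage markers (32.8% of all genes), with a mean of -0.26 against its type. EMT6.5 tumour 3, in contrast, was the highest of its type in 12 of 15 macrophage markers (36.8% of all genes), with a mean of 0.14. It was also the highest in 7 of 8 skeletal muscle markers, with a mean of 1.27. EO771.LMB tumour 1 was the highest in 9 of 16 adipocyte markers (31.4% of all genes), with a mean of 0.28. It was also the highest in 6 of 8 endothelial markers, with a mean of 0.11. Their part in the orders of the tumours was not tested.

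Over all 40 genes, the 16 included, EO771 tumour 2 was the highest of its type in 32 (34.9% of all genes) and EO771 tumour 3 the lowest in 33 (32.1%), among them Insig1, Scd2 and Lpin1. In contrast, Abca1, Acsl1 and Acsl5 had their highest EO771 signals in tumours 1, 3 and 3.

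A further 38 genes of these pathways were listed beside the members. By the test, 4T1.2 was above 67NR in 3 (9.78% of all genes) and below it in 5 (11%), shares of the 38 near those of all genes, and in the EO771 pair none passed. Elovl7, an elongase, was 6.31, 7.04 and 6.02 in 67NR, followed by 10.09, 10.29 and 10.34 in 4T1.2, 8.77, 8.91 and 8.50 in EMT6.5, then 10.37, 10.65 and 10.72 in EO771, with 10.78, 10.63 and 10.55 in EO771.LMB. The 67NR tumours lay far below all others, and 4T1.2 exceeded them by 3.78 ± 0.21 (adjusted p = 8.4e-09). Npc2, which carries cholesterol inside the lysosome, and Hsd17b12, a reductase of fatty acid elongation, were higher in 4T1.2 by 0.47 ± 0.13 (adjusted p = 0.017) and 0.38 ± 0.11 (adjusted p = 0.022).

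Mbtps1, the protease that makes the first cut in SREBP, was 9.60, 9.67 and 9.54 in 67NR, followed by 8.60, 8.65 and 8.13 in 4T1.2, 8.44, 8.96 and 8.76 in EMT6.5, then 9.08, 9.31 and 9.19 in EO771, with 9.06, 9.09 and 9.23 in EO771.LMB. The 4T1.2 tumours lay below the 67NR tumours, with a difference of -1.15 ± 0.15 (adjusted p = 7.4e-05). Npc1, which exports cholesterol from the lysosome, was 9.37, 9.37 and 9.32 in 67NR, followed by 8.60, 8.66 and 8.59 in 4T1.2, 8.77, 8.85 and 8.73 in EMT6.5, then 9.73, 9.25 and 9.46 in EO771, with 9.54, 9.37 and 9.54 in EO771.LMB, and 4T1.2 was lower than 67NR, with a difference of -0.74 ± 0.11 (adjusted p = 0.00027).

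In EMT6.5, 8 of the 38 were higher than in the 4T1 pair (11.9% of all genes) and 3 lower (9.56%). Msmo1 and Sc5d, which act in the sterol steps, were higher in EMT6.5 by 0.73 ± 0.17 (adjusted p = 0.0093) and 0.70 ± 0.13 (adjusted p = 0.0014). Fabp5, a fatty acid carrier, and Stard3, a sterol carrier of late endosomes, were lower, with a difference of -0.97 ± 0.17 (adjusted p = 0.001) and -0.65 ± 0.16 (adjusted p = 0.011). Skeletal muscle markers, 8 genes, ran from a score of -0.43 in 1 EMT6.5 tumour to 2.61 in another, and their part in the values of EMT6.5 was not tested.

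Against the BALB/c types, 19 of the 38 were higher in the EO771 pair (23.4% of all genes) and 5 lower (19.5%). Acsl6, an acyl-CoA synthetase, was 5.07, 4.81 and 4.95 in 67NR, followed by 5.05, 4.90 and 5.33 in 4T1.2, 5.09, 5.12 and 5.12 in EMT6.5, then 8.10, 8.04 and 8.11 in EO771, with 8.00, 7.82 and 8.00 in EO771.LMB. The EO771 pair exceeded the BALB/c types by 2.97 ± 0.07 (adjusted p = 5.7e-13), with no overlap. Scarb1, a receptor for high-density lipoprotein, was higher by 1.44 ± 0.10 (adjusted p = 2.6e-08), and Elovl7 by 2.14 ± 0.13 (adjusted p = 7.9e-09). For Elovl7 the 4T1.2 tumours, at 10.09 to 10.34, lay just below the EO771 pair, at 10.37 to 10.78. The low BALB/c mean came from 67NR and EMT6.5.

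Apoe, which carries lipids and which macrophages also make, was 12.09, 12.12 and 11.66 in 67NR, followed by 11.51, 11.63 and 11.20 in 4T1.2, 10.50, 10.92 and 10.55 in EMT6.5, then 8.55, 8.93 and 8.21 in EO771, with 8.25, 8.21 and 8.76 in EO771.LMB. It was lower in the EO771 pair, with a difference of -2.87 ± 0.13 (adjusted p = 3.7e-10) and lower in EMT6.5 than in the 4T1 pair, with a difference of -1.04 ± 0.18 (adjusted p = 0.00086). The macrophage scores given above had the same order of types, 67NR, 4T1.2, EMT6.5 and then the EO771 pair, and their part in the level of Apoe was not tested. Mylip, which marks lipoprotein receptors for breakdown, and Slc25a1, the mitochondrial citrate carrier, were lower in the EO771 pair, with a difference of -1.05 ± 0.14 (adjusted p = 2.4e-05) and -0.74 ± 0.10 (adjusted p = 4.3e-05).

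Array medians lay between 6.32 and 6.44. Across clusters, the correlation (Pearson's r) ran from 0.983 to 0.989 within a type, 0.978 to 0.989 between EO771 and EO771.LMB tumours and 0.920 to 0.963 between all other tumours, as a description of the arrays. Cell markers moved with the types. Of all 22008 genes, 9964 had a difference below 0 in EO771.LMB less EO771. Markers of adipocytes, cells that make fatty acids themselves, had one in 16 of 16 genes (median -0.65, none passed). Adipocyte scores were 0.21 to 0.32 in EO771 and -0.58 to -0.14 in EO771.LMB. Endothelial markers were below 0 in the same pair for 8 of 8 genes (median -0.40), and Cdh5, the vascular cadherin, was lower in EO771.LMB with -1.55 ± 0.12 (adjusted p = 0.00022), among the 6 genes that passed there. Macrophage markers were below 0 in that pair for 14 of 15 genes (median -0.27, none passed). Neutrophil markers were higher in 4T1.2 than in 67NR for 8 of 12 genes (9.78% of all genes). Proliferation genes were higher in the EO771 pair than in the BALB/c types for 9 of 12 (23.4% of all genes) and lower for 1 (19.5%), with scores from -0.61 to -0.43 in 67NR and from 0.23 to 0.36 in the EO771 pair. Mammary epithelial markers, 10 genes, had mean scores between -0.39 in EO771.LMB and 0.48 in EMT6.5. The part of these cell types in the values above was not tested.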

How the data were processed

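The authors deposited normalized log2 signals for 35556 transcript clusters on 15 arrays. The methods name GCRMA and the submitters' processing notes list Partek 6.6 and RMA, so the algorithm is not settled, and the genome build is not given in the sources used here. The workbook table and the series table hold the same values (0 of 533340 differed). The 30 further per-sample columns were left unused. Without detection calls a dim signal may be background, and precision is limited by the number of arrays. Each label names its own mouse, so p-values measure the spread between animals carrying 1 line.

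A gene with several clusters was read from its brightest cluster (mean of 15 tumours). In R 4.3.3 with limma 3.58.1, 1 linear model with tumour type as the term was fitted to all 15 tumours and all clusters, without filter, with an empirical Bayes prior. Adjustment covered all clusters of each comparison, with a threshold of 0.05. Of 169 genes on the lists of members, other pathway genes and cell markers, 169 were measured, 8 under an older symbol. The members and lists were chosen with earlier results of these data known. Values in every tumour are given for up to 6 members per direction with the largest change past the threshold in each comparison and for the member with the widest range of type means in each role group. Up to 3 other pathway genes per direction are named in 3 comparisons. Some of these are not reported here. Mvd, Pmvk, Insig1, Scd2 and further members were given after their values were seen. Simulated data with known changes were used to test the fit. Alternatives were the series table, 2 other scalings, a filter on dim clusters, one-way analysis of variance, an intensity trend with a robust prior, the mean of a gene's clusters, an unadjusted threshold, the tumour number as a block, only the types compared, and each tumour left out.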

Additional observations from a re-analysis of the deposited data

Results flagged for a closer look

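For 14 of the 40 genes the difference between EO771.LMB and EO771 differed from that between 4T1.2 and 67NR by limma's test of the difference itself, fitted over all 15 tumours. Of all genes, 6.41% passed with a positive and 5.88% with a negative sign. On the log2 scale, EO771 pair less 4T1 pair, it was 2.08 for Fdps, 1.84 for Lpin1, 1.49 for Cyp51, 1.43 for Dhcr7, 1.30 for Nsdhl, 1.27 for Hsd17b7 and 1.199 for Idi1. It was 1.10 for Mvd, 1.02 for Stard4, 0.92 for Ebp and 0.79 for Srebf2. It was negative for 3 genes, -1.19 for Acsl4, -0.59 for Acacb and -0.49 for Fasn. Adjusted p-values ran from 0.00026 for Acsl4 to 0.047 for Fasn. With 1 tumour left out, Fasn lost its call in 12 of 15 fits, Idi1 in 9, Ebp in 8 and Nsdhl and Srebf2 in 4 each, and the 11 positive genes fell to 7 without 67NR tumour 2 or EO771.LMB tumour 3. With 3 tumours a type, single tumours were not tested as outliers.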

How the results depend on the processing

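The table, cluster, scaling, filter, prior and sample choices left every direction among 93 gene results in place. Of 2264 alternative values for them, 2115 kept their side of the threshold, 149 lost it and 0 were reversed. All 93 had passed in the main fit. The series table held the same values and the unadjusted threshold is looser, so neither could lose a call. Some fits with 1 tumour left out dropped a tumour outside the comparison. The count of values kept therefore overstates how firm the calls are. At an unadjusted p under 0.05, 4T1.2 exceeded 67NR in 5 genes and was below it in 18 (9 cholesterol synthesis genes lower), 13 were higher and 2 lower in EO771.LMB than in EO771, 20 were positive between the pairs, and 12 were higher and 2 lower in EMT6.5 (3 cholesterol synthesis genes higher). One-way analysis of variance gave 3 cholesterol synthesis genes lower in 4T1.2, 6 genes positive between the pairs (4 of cholesterol synthesis) and 2 lower in EMT6.5. With only the types compared in the fit, 1 gene was higher in 4T1.2 and 2 cholesterol synthesis genes in EMT6.5. Deviations of same-numbered tumours from their type means had correlations of -0.168 to 0.149 (median 0.0209). For different numbers they were -0.165 to 0.213 (median -0.00135). These correlations describe the arrays and cannot show whether the numbers mark a pairing. With the tumour number as a replicate block 2 cholesterol synthesis genes were higher in EMT6.5. Over the fits that left out 1 tumour, 4T1.2 exceeded 67NR in 1 to 4 genes and was below it in 3 to 13 (2 to 6 of cholesterol synthesis lower), the median in the EO771 pair was 0.13 to 0.41 with 15 to 16 cholesterol synthesis genes above 0, and 7 to 15 genes were positive and 2 to 3 negative between the pairs (median 0.48 to 0.73, 5 to 11 of cholesterol synthesis). In EMT6.5 3 to 9 genes were higher (1 to 2 of cholesterol synthesis), and in the EO771 pair against the BALB/c types 24 to 25 were higher. Keeping clusters above the median signal left out Tm7sf2 and Acacb. Causes were not tested.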
